A study of Bos taurus with 16 samples.

Results

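Granulosa cells line the wall of the ovarian follicle, respond to follicle-stimulating hormone and make oestradiol. The corpus luteum is the gland that forms from an ovulated follicle and secretes progesterone. Granulosa cells of cattle (Bos taurus) were compared between follicles of the ovary that carried the corpus luteum (ipsilateral) and follicles of the opposite ovary (contralateral). The comparison rests on the 8 granulosa libraries of a series of 16, chosen by their labelled cell type and side, with 4 libraries per side. The other 8 libraries hold cumulus cells, which surround the oocyte, and were used only where stated. Each library was made from polyA RNA of a pool of 3 animals, per the design text. The labels name no strain, age, hormone treatment or cycle day, and they do not say whether pools share animals. P-values here therefore measure the spread between pools. Below, I1 to I4 are the ipsilateral and C1 to C4 the contralateral granulosa libraries, numbered in accession order with no pairing implied.

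Levels are CPM, the counts of an entry per 1 M counts of its library, adjusted by TMM factors, which correct library totals for composition. They are comparable between libraries for 1 gene, but not between genes, since gene length was not used. Log2 fold changes are ipsilateral minus contralateral, with a standard error (SE), so a value above 0 means a higher level on the side of the corpus luteum. The total count averaged 17.5 ± 2.99 M over ipsilateral libraries and 16.9 ± 4.71 M over contralateral ones (M, mega; SD, n = 4 each; exact permutation p = 0.771, two-sided, where the smallest possible p is 0.0286). The range was from 10.1 M in C1 to 21.9 M in I4. A count of 0 allows up to 3 counts, or between 0.129 CPM in I4 and 0.307 CPM in C1, for counting error only. Of 36824 entries in the count table, 2474 had a gene name, while Ensembl entries without a name held 94.5% of the granulosa counts. Of 16411 entries tested, 721 were named. Gene groups below therefore show the members that could be matched by name and never a whole pathway.

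The labelled cell type could not be checked with granulosa markers, because none of that list (FSHR, CYP19A1, FOXL2 and others) was matched by name. No member of the lists for theca and luteal cells, endothelium, stroma or erythrocytes was matched either. Of the cumulus list, 3 genes were matched, and each was lower in all 8 granulosa libraries than in any cumulus library. That list was chosen with earlier results of these data known. The levels therefore describe the libraries and are no independent check of the label. C11H2orf40 (ECRG4), the precursor of secreted peptides, had 10.8 to 189 CPM in granulosa and 714 to 1480 CPM in cumulus libraries. HYDIN, a protein of the ciliary central pair, had at most 8.36 CPM in granulosa and at least 54.1 CPM in cumulus libraries. The membrane glycoprotein gene EMB had at most 29.8 CPM against at least 132 CPM.

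C3 stood apart from the other granulosa libraries in the count of entries high in 1 library alone. An entry was counted as high in 1 library only where it had at least 5 CPM there and at least 4 times the highest of the other 7 libraries, with levels under 3 counts raised to that floor. C3 had 187 such entries, I2 had 30, I3 had 23, C1 had 21, I1 had 2, I4 and C4 had 1 each, and C2 had 0. Over all entries tested below C3 was less unusual, being the highest library for 11.5%, against 17.5% for I1. Results that rest on C3 are given with and without it.

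Between the sides, edgeR and limma-voom called 0 entries in granulosa cells, and DESeq2 called 1. By edgeR's quasi-likelihood test with Benjamini-Hochberg adjustment, 0 of 16411 entries (0%) passed an adjusted p of 0.05, and the smallest adjusted p was 0.77. At an unadjusted p under 0.05 there were 579 entries, or 3.53% of those tested, with 230 (1.4%) above and 349 (2.13%) below 0. Without C3 there were 608 such entries, and the part above 0 was 50.7% in place of 39.7%. Without I3 there were 904, with 57.7% above 0. A share near 5% is what this threshold gives without any difference. Limma-voom also called 0 entries, with 599 at an unadjusted p under 0.05. DESeq2 called 1 of 26589 entries (0.00376%). All 4 ipsilateral libraries lay above all 4 contralateral ones for 153 entries (0.932%), and below them for 241 (1.47%). The median log2 fold change was 0.006, and 51% of entries lay above 0.

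Over both sides together, libraries of the same side were not more alike than libraries of opposite sides. Spearman's rho across entries had a median of 0.959 over 12 same-side pairs and 0.962 over 16 opposite-side pairs. The median size of the log2 ratio was 0.306 in the former and 0.304 in the latter. Within sides, the 6 contralateral pairs had 0.262 to 0.312, with a median of 0.276. The 6 ipsilateral pairs had 0.299 to 0.381, with a median of 0.333, against 0.264 to 0.363 for opposite sides. The highest value was that of I1 with I2. The ranges overlap, pairs that share libraries are not independent, and a difference in spread between the sides was not tested. The biological coefficient of variation common to all entries was 38.6%.

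**Figure D1:**
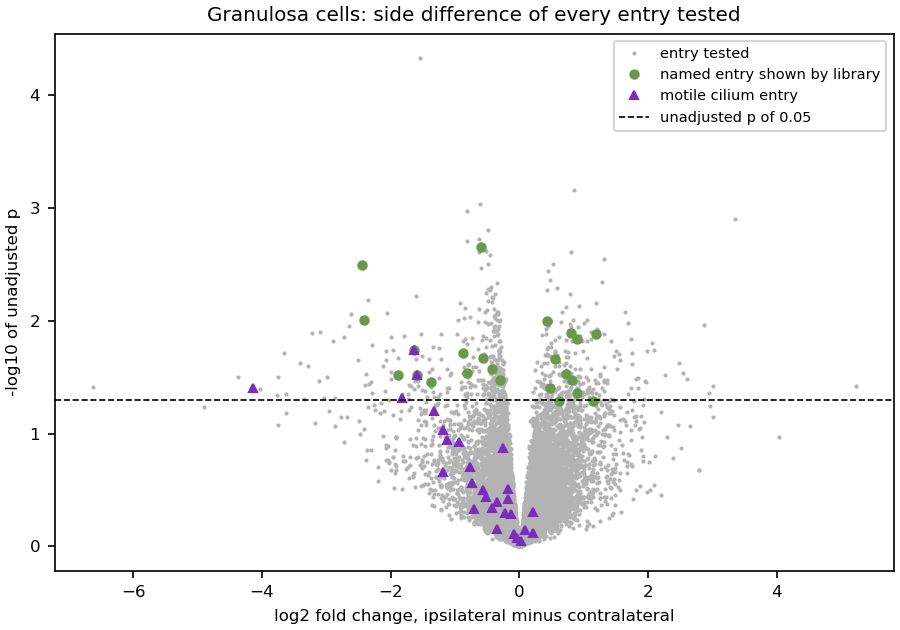
Side difference of all 16411 entries tested in the 8 granulosa libraries, with the log2 fold change (ipsilateral minus contralateral) on the x axis and -log10 of the unadjusted p on the y axis. No entry passed the adjusted threshold, 579 lay above the dashed line at an unadjusted p of 0.05, and 24 of 28 motile cilium entries (triangles) lay left of 0.

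The entry called by DESeq2 was ENSBTAG00000021855, which has no name in the sources used here. Its levels were 4.65, 4.25, 5.2 and 5.6 CPM in I1 to I4, and 11.8, 18.7, 14.3 and 12.6 CPM in C1 to C4. All ipsilateral levels lay far below the lowest contralateral one. Its log2 fold change was -1.54 ± 0.23, with an adjusted p of 9.3e-06 in DESeq2 and 0.77 in edgeR. In cumulus cells the side difference of this entry was -0.13 ± 0.30. The other unnamed entries with the smallest p were ENSBTAG00000005186, at -0.61 ± 0.13, and, above 0, ENSBTAG00000013960, at 0.85 ± 0.18, and ENSBTAG00000021699, at 3.36 ± 0.76. Without C2 the value of ENSBTAG00000021699 was 4.35.

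Among named entries, 29 of 721 had an unadjusted p under 0.05, 10 above and 19 below 0. Most of the 12 with the smallest p in each direction are described by function. All of the 12 in each direction had an adjusted p of 1 in edgeR, so none is called, and their order can depend on chance. Side groups did not overlap for 6 of the 12 higher and 7 of the 12 lower, a count that the choice by smallest p raises.

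**Figure D2:**
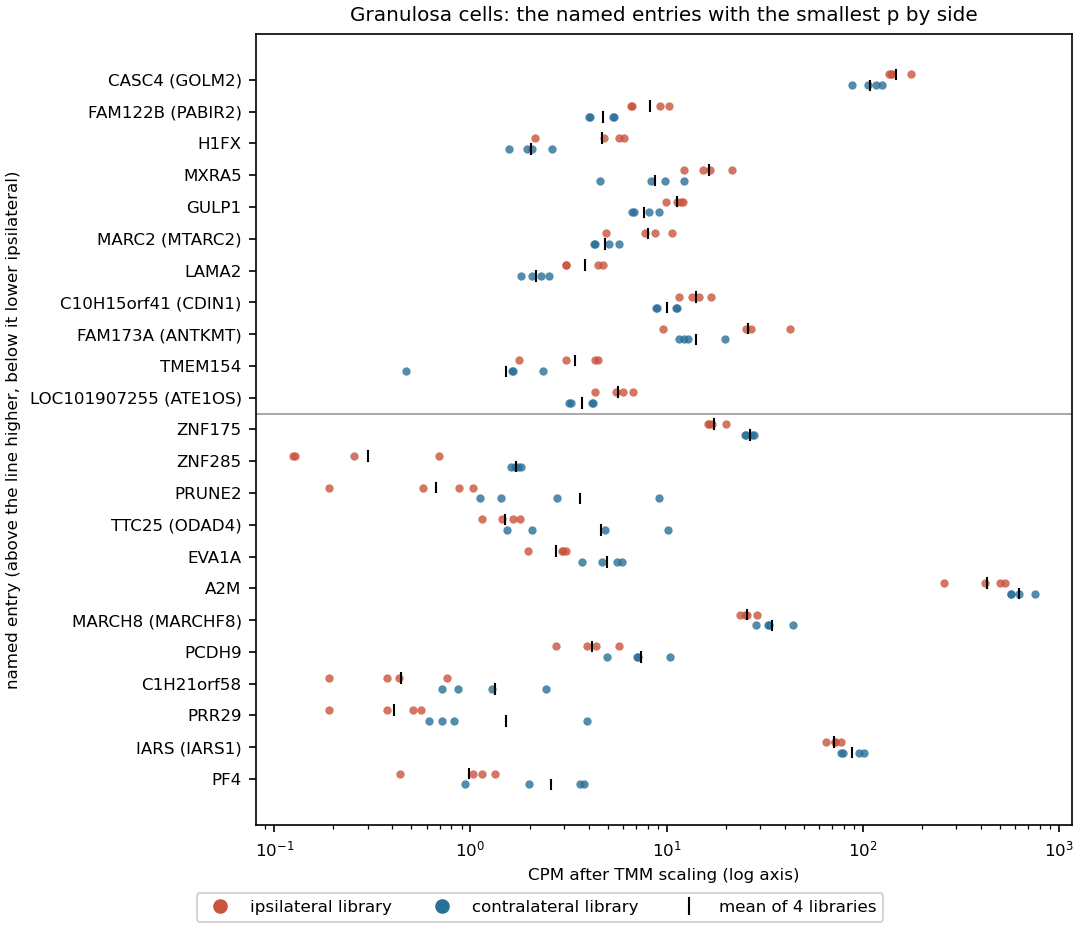
CPM after TMM scaling (log axis) of named entries among the 12 with the smallest unadjusted p in each direction, with 1 point per library and a bar at the mean of 4 libraries. ZNF175 shows the tightest separation, with 16.3 to 20.1 CPM ipsilateral and 25.2 to 27.8 CPM contralateral, whereas PRUNE2, TTC25 and PRR29 each have 1 contralateral point, C3, far to the right.

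Genes of the extracellular matrix gave both directions. MXRA5, a secreted matrix protein, had 21.5, 15.3, 16.6 and 12.2 CPM in I1 to I4 and 8.29, 4.58, 9.83 and 12.3 CPM in C1 to C4. Only I4 fell within the contralateral range, and the log2 fold change was 0.90 ± 0.31. LAMA2, a laminin chain of basement membranes, had 4.46, 4.75, 3.07 and 3.06 CPM ipsilateral and 2.05, 2.5, 2.3 and 1.82 CPM contralateral, with no overlap (0.82 ± 0.33). A2M, a broad protease inhibitor, had 421, 504, 529 and 259 CPM ipsilateral and 624, 570, 755 and 571 CPM contralateral. All ipsilateral levels of A2M lay below the contralateral ones, at -0.56 ± 0.20. TIMP1, an inhibitor of matrix metalloproteinases, had a log2 fold change of 0.00 ± 0.21, with 1350 to 2700 CPM ipsilateral and 1720 to 2380 CPM contralateral. Of 20 matrix genes matched by name, 10 were tested, with 6 above and 4 below 0, a median of 0, and 3 at an unadjusted p under 0.05, against 3.53% of all entries tested. None of the 3 was called.

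Of 13 collagens matched, 7 were tested, with 5 above and 2 below 0 and a median of 0.23. COL4A4, a chain of basement membrane collagen, had 157, 198, 139 and 246 CPM ipsilateral and 153, 146, 131 and 200 CPM contralateral, with overlapping sides (0.23 ± 0.19). COL9A2 ranged from 1.34 CPM in I4 to 45.2 CPM in C3, and COL21A1 from 5.74 CPM in I1 to 79.6 CPM in I2. For both, libraries of 1 side differed more than the sides did. COL25A1 had 0.99 ± 0.63, and 0.38 without I2. COL16A1 had 0.55 ± 0.38.

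H1FX, a linker histone that binds DNA between nucleosomes, had 6.06, 5.71, 2.13 and 4.78 CPM in I1 to I4 and 1.94, 1.58, 2.59 and 2.06 CPM in C1 to C4. I3 alone of the ipsilateral libraries lay within the contralateral range, and the log2 fold change was 1.19 ± 0.40. Of 11 replacement histones tested, 8 lay above and 3 below 0, with a median of 0.07, and 2 had an unadjusted p under 0.05 (3.53% over all entries), with no call. H2AFV (H2AZ2), at 215 to 276 CPM in all 8 libraries, had 0.10 ± 0.09. H2AFX (H2AX), which marks DNA breaks when phosphorylated, had 0.70 ± 0.47, and 0.14 without I1.

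Replication-dependent histone genes, which are expressed mainly in S phase and mostly make mRNA without a polyA tail, leaned to the ipsilateral side without a call. Of 56 matched, 22 were tested, of which 20 lay above and 2 below 0, with a median of 0.51 against 0.006 over all entries. None had an unadjusted p under 0.05 in edgeR or DESeq2, 2 did in limma-voom (HIST1H2AC at 0.0347 and HIST1H2BD at 0.0407), none separated the sides, and 2 of the 22 entries were exact repeats of each other. HIST1H2AC (H2AC6) had 6.63, 4.82, 6.46 and 8.87 CPM ipsilateral and 6.04, 2.95, 4.55 and 3.64 CPM contralateral, at 0.65 ± 0.32. HIST1H1D (H1-3) had 0.60 ± 0.30, HIST1H2BD 0.95 ± 0.49, and HIST2H2AA4 0.66 ± 0.38. Summed over the list, levels were 263, 248, 282 and 186 CPM in I1 to I4 and 197, 197, 194 and 165 CPM in C1 to C4. I4, at 186 CPM, lay within the contralateral range. The median stayed between 0.44 and 0.61 when any 1 library was left out. Members of this family have near-identical sequences, so reads could be split between them in ways that the table does not show.

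Zinc-finger genes, most of which encode DNA-binding regulators, did not lean to a side. Of 56 tested, 26 lay above and 30 below 0, with a median of -0.02. ZNF175 had 16.3, 16.4, 17.1 and 20.1 CPM in I1 to I4 and 25.5, 25.2, 27.8 and 27.4 CPM in C1 to C4, a log2 fold change of -0.60 ± 0.15. The sides were separated by a gap wider than the spread within either. ZNF285 had 0.255, 0.127, 0.125 and 0.689 CPM ipsilateral and 1.74, 1.68, 1.61 and 1.82 CPM contralateral. The difference was -2.44 ± 0.64, and -3.30 without I4, at ipsilateral levels of few counts. ZNF792 had 0.65 ± 0.31 and ZNF157 -1.09 ± 0.55, both with overlapping sides.

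Of 19 aminoacyl-tRNA synthetases, which charge tRNAs with amino acids, 6 lay above and 13 below 0, with a median of -0.10, and 1 had an unadjusted p under 0.05 without being called. This was IARS (IARS1), the isoleucyl-tRNA synthetase, with 72, 65.1, 77.4 and 72.3 CPM ipsilateral and 77.6, 101, 79.6 and 95.7 CPM contralateral (-0.30 ± 0.12). For IARS the highest ipsilateral and the lowest contralateral level nearly touched. RARS (RARS1) had -0.18 ± 0.09 and YARS (YARS1) -0.23 ± 0.12.

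The remaining named entries above 0 had varied roles. CASC4 (GOLM2), a Golgi membrane protein, had 176, 141, 139 and 136 CPM ipsilateral and 117, 87.8, 126 and 107 CPM contralateral, with no overlap (0.43 ± 0.14). FAM122B (PABIR2) had 6.57, 9.26, 10.3 and 6.63 CPM ipsilateral and 4.09, 5.35, 4.01 and 5.4 CPM contralateral, at 0.80 ± 0.26. GULP1, an adaptor in the uptake of dying cells, had 9.97 to 12.1 CPM ipsilateral and 6.64 to 9.11 CPM contralateral (0.56 ± 0.21). C10H15orf41 (CDIN1), linked to red cell formation, had 0.48 ± 0.21. The sides did not overlap for FAM122B, GULP1 and C10H15orf41 either. MARC2 (MTARC2), a mitochondrial reductase, had 0.72 ± 0.29, and FAM173A (ANTKMT), a mitochondrial lysine methyltransferase, had 0.89 ± 0.39 with I3 below every contralateral library. TMEM154 had 1.15 ± 0.52. LOC101907255 (ATE1OS) had 0.61 ± 0.28 and overlaps ATE1, and without strand its reads cannot be told from those of ATE1.

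Among the entries below 0, EVA1A, linked to autophagy, had 3.06, 1.97, 2.95 and 2.93 CPM ipsilateral and 3.69, 5.91, 4.69 and 5.58 CPM contralateral. The sides did not overlap, at -0.87 ± 0.31. PCDH9, a protocadherin of cell contacts, had 4.34, 2.73, 3.95 and 5.69 CPM ipsilateral and 7.06, 4.94, 7.19 and 10.4 CPM contralateral (-0.82 ± 0.32). MARCH8 (MARCHF8), a membrane-bound ubiquitin ligase, had -0.42 ± 0.16, whereas 8 of the 11 RING-CH ubiquitin ligases tested lay above 0. PF4, a platelet chemokine and the only leukocyte marker matched, had 1.34, 1.14, 0.439 and 1.03 CPM ipsilateral and 3.79, 1.99, 3.62 and 0.94 CPM contralateral. C4 was the lowest but 1 of all 8 libraries for PF4, so the sides overlapped (-1.37 ± 0.56). Such levels come from pooled cells, in which fewer cells of a type and less RNA per cell cannot be told apart.

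PRUNE2, PRR29, TTC25 and C1H21orf58 had their highest level in C3. PRUNE2 had 0.574, 0.19, 0.878 and 1.03 CPM ipsilateral and 1.43, 1.12, 9.19 and 2.76 CPM contralateral. The sides did not overlap, and the log2 fold change of PRUNE2 was -2.42 ± 0.77, and -1.39 without C3. TTC25 (ODAD4), part of the docking complex of outer dynein arms, had -1.64 ± 0.58, and -0.91 without C3. PRR29 had 3.91 CPM in C3 and 0.611 to 0.822 CPM in the other contralateral libraries (-1.88 ± 0.75). Without C3, and likewise without C4, PRR29 did not pass the filter. C1H21orf58 had -1.59 ± 0.63, and -1.12 without C3.

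The other lists had few members tested. Septins, GTP-binding proteins of the cell cortex, had 6 of 11 above 0 and a median of 0.02. SEPT9 had 0.27 ± 0.16. SEPT4 (SEPTIN4) had 0.80 ± 0.57, and 0.29 without I2. Of 8 genes of the respiratory chain, 6 lay above 0, with a median of 0.06. LOC100139115 (SURF1) had 0.52 ± 0.32, and 0.16 without I1. The immediate early genes CYR61 (CCN1) and CTGF (CCN2), both secreted matrix-associated proteins, had -0.10 ± 0.13 and -0.18 ± 0.18, and IER5 had 0.26 ± 0.32. The selenoprotein gene SELENOW, at 215 to 316 CPM, had 0.05 ± 0.12. Medians lay further from 0 for protocadherins and cadherins (-0.27, 3 tested), the cumulus markers (-0.31, 3 tested) and insulin and IGF signalling (0.28, 2 tested). Lists with 1 gene tested had 0.38 for TGF-beta family signalling and 0.32 for chaperones. None of these genes was called, and of them PCDH9 alone had an unadjusted p under 0.05.

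Whether the side difference in granulosa cells differed from that in cumulus cells was tested in all 16 libraries. By edgeR's quasi-likelihood test 0 of 18038 entries (0%) passed an adjusted p of 0.05, the smallest adjusted p was 0.653, and 1358 entries (7.53%) had an unadjusted p under 0.05. DESeq2 called 1 entry. MXRA5 had the smallest p among named entries, with 0.90 ± 0.31 in granulosa and -2.27 ± 0.77 in cumulus cells, a difference of 3.18 ± 0.81. On a scale over all 16 libraries, MXRA5 averaged 0.874 CPM in cumulus and 12.9 CPM in granulosa libraries. Its cumulus difference was thus fitted at a low level. CASC4 differed by 0.59 ± 0.17, with -0.16 ± 0.10 in cumulus cells. HSPA6, a stress-induced chaperone, differed by 1.73 ± 0.52, MUM1 (PWWP3A) by 0.53 ± 0.16 and SMKR1 by 1.37 ± 0.42, and for these 3 the cumulus difference was the larger of the pair in size. In the other direction stood TTC25 at -2.22 ± 0.67 (-1.50 without C3), NHEDC1 (SLC9B1) at -2.70 ± 0.85, DLGAP2 at -1.93 ± 0.61, EVA1A at -1.41 ± 0.47 and RBM8A at -0.43 ± 0.14. NHEDC1 and DLGAP2 did not pass the filter in the granulosa libraries alone. All 4 ipsilateral levels of NHEDC1, at 0 to 0.129 CPM, were at or under the floor of 3 counts, so its fitted difference depends on the prior count. Of the 12 named entries with the smallest p above 0 in granulosa cells, 4 also lay above 0 in cumulus cells. Of the 12 below 0, 10 were tested in cumulus cells and 6 of these lay below 0.

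The main axis of variation among granulosa libraries did not follow the side. The first principal component held 27.3% of the variance, with I1 at -55.8, I3 at -47.7, C3 at -33.8 and C1 at -15.7, and C2 at 14.1, I4 at 35.3, I2 at 48.9 and C4 at 54.7. Each end of the axis thus held 2 libraries of each side. The next components held 16.3% and 15.3%.

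**Figure D3:**
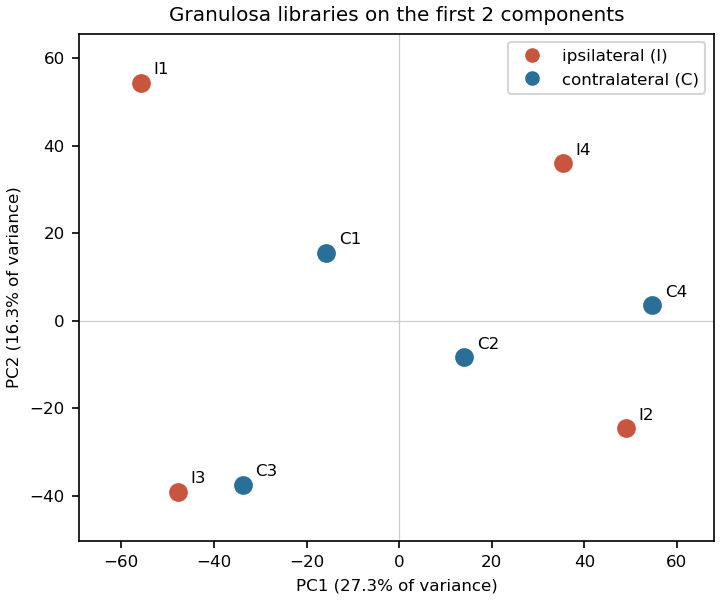
The 8 granulosa libraries on the first and second principal components of log2 CPM, coloured by side (I ipsilateral, C contralateral). The first component, with 27.3% of the variance, puts I1, I3, C3 and C1 on the left and C2, I4, I2 and C4 on the right, so that neither side forms a group.

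Many of the named entries at 1 end of this axis were higher in cumulus cells. Of the 15 named entries with the highest loadings, 11 had a higher mean in cumulus than in granulosa libraries, as did 3 of the 15 with the lowest loadings and 377 of all 721 named entries tested. These entries were picked by their loadings in the same granulosa libraries, so the counts are a description. C11H2orf40 had 10.8, 96.6, 17.8 and 189 CPM in I1 to I4 and 28.8, 63.2, 132 and 166 CPM in C1 to C4. IL1RAPL2, a receptor accessory protein, had 1.72, 18.7, 2.82 and 18.8 CPM ipsilateral and 7.58, 6.11, 4.79 and 13.3 CPM contralateral. Both were lowest in I1 and next to lowest in I3. Summed over the 3 cumulus markers, levels were 18.4, 115, 45 and 215 CPM in I1 to I4 and 40.2, 72.3, 170 and 178 CPM in C1 to C4. C11H2orf40 was the largest part of this sum except in I3. The marker EMB did not follow the axis, with 29.8 CPM in C3 and 26.5 CPM in I3 but 7.34 CPM in C4. HYDIN was as high in C3, at the low end, as in I4, at 8.36 CPM. The part of cumulus transcripts in the library order was not tested.

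At the other end stood a different set. MUC16, a membrane mucin and the only matched marker of the ovarian surface epithelium, had 9.82, 0, 43.3 and 0 CPM in I1 to I4 and 0.717, 0.0509, 24.4 and 0 CPM in C1 to C4. I3, C3 and I1 held nearly all of it, and cumulus libraries reached at most 2.09 CPM. FAM84A (LRATD1) had 4.4, 0, 21.9 and 0.474 CPM ipsilateral and 0.717, 0.306, 26.1 and 0.881 CPM contralateral, and it was high in the same 3 libraries. MUC16 had a side difference of 1.06 ± 2.28, and FAM84A of -0.08 ± 1.83, and single libraries set both the size and the sign. Without C3, MUC16 had 6.01 and FAM84A 3.38, and without I3 they had -0.96 and -2.13. PLAC8 was highest in I3 and C3, at 9.85 and 8.56 CPM, and GPX6 was highest in I1, at 35.7 CPM, and lowest in C4, at 2.53 CPM. NMB, which encodes the peptide neuromedin B, was named by its spread and was not among these low loadings. NMB had 127 CPM in I2 and 8.93 CPM in I1, with 24.2 to 35.9 CPM in the contralateral libraries. Its side difference of 0.88 ± 0.66 was 0.03 without I2. DMBT1, a secreted scavenger receptor protein, ranged from 0.0509 CPM in C2 to 11.9 CPM in I4.

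**Figure D4:**
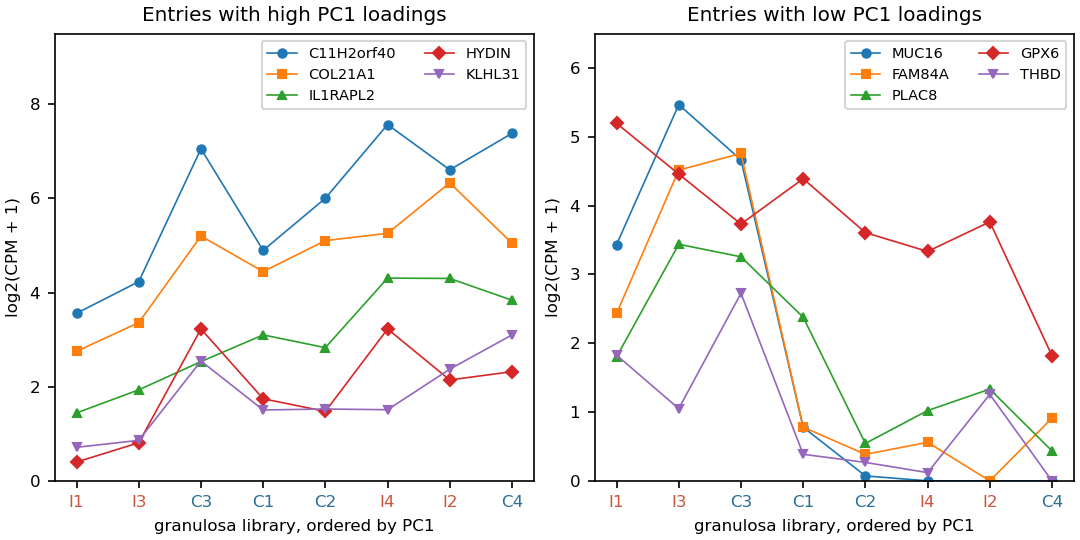
Levels as log2(CPM + 1) of 5 named entries with high loadings (left) and 5 with low loadings (right) on the first component, in the 8 granulosa libraries ordered by that component. C11H2orf40 runs from 10.8 CPM in I1 to 166 CPM in C4, while MUC16 is at 9.82, 43.3 and 24.4 CPM in I1, I3 and C3 and at or below 0.717 CPM in the other 5.

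The transcripts that set C3 apart included many of the motile cilium. Motile cilia beat by sliding of doublet microtubules, driven by dynein arms that are assembled in the cytoplasm, docked on the doublets and controlled by radial spokes, nexin links and a central pair. Multiciliated cells line the oviduct, whereas granulosa cells are not known for motile cilia. Of the motile cilium list, 38 genes were matched, and all were detected in at least 1 granulosa library. C3 had the highest level for 28 of the 38, was at least 2 times the next library for 20 and at least 4 times for 11. Of the 28 tested, C3 was highest for 19, while it was highest for 11.5% of all tested entries. Summed over the list, C3 had 555 CPM and the other 7 libraries had 297 to 343 CPM. The list was written with this pattern known, and C3 was singled out by these transcripts, so the counts describe the library.

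**Figure D5:**
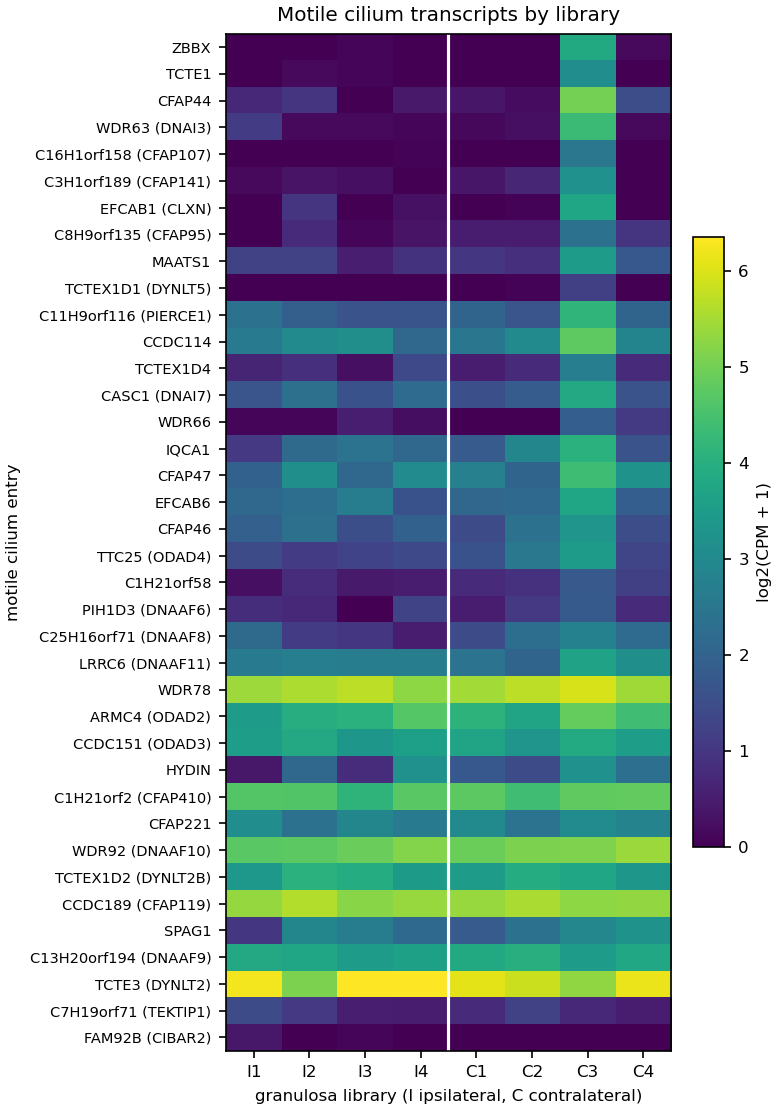
Heat map of log2(CPM + 1) for the 38 motile cilium entries in the 8 granulosa libraries (I ipsilateral, C contralateral), ordered by the ratio of C3 to the next library, with levels under 3 counts raised to that floor. C3 is highest in 28 rows, from ZBBX at 13.5 CPM at the top, while entries in the lower part, such as TCTE3 and CCDC189, are at similar or lower levels in C3.

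Dynein arm and docking genes were the largest group, with C3 highest for 11 of 13. CFAP44, which tethers inner dynein arms, had 31.6 CPM in C3, 1.82 CPM in C4, and 0 to 0.951 CPM in the other 6 libraries. WDR63 (DNAI3), an intermediate chain of inner arms, had 19.3 CPM in C3 and at most 1.15 CPM elsewhere among the granulosa libraries. EFCAB1 (CLXN), a calcium-binding protein of outer arms, had 12.4 CPM in C3 and at most 0.951 CPM elsewhere. CCDC114, of the docking complex, had 26.7 CPM in C3 against 3.45 to 7.78 CPM, and CASC1 (DNAI7) had 13.3 CPM against 1.94 to 4.12 CPM. Other members of the group were expressed in every library. WDR78 had 62 CPM in C3 and 37.5 to 52.3 CPM elsewhere, and the dynein light chain gene TCTE3 (DYNLT2) had 38.2 CPM in C3 against 33.1 to 81 CPM.

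The assembly factors differed less. C3 was highest for 3 of 6, and for none was it 2 times the next library. LRRC6 (DNAAF11) had 11.6 CPM in C3 and 3.16 to 7.93 CPM elsewhere, whereas WDR92 (DNAAF10) had 34.2 CPM in C3 and reached 41.6 CPM in C4. SPAG1 and C13H20orf194 (DNAAF9) were also not highest in C3.

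For the radial spokes and nexin links, C3 was highest for 4 of 4, each at least 2 times the next library. TCTE1, of the nexin link, had 7.68 CPM in C3 and at most 0.127 CPM elsewhere. MAATS1, at the spoke base, had 10.4 CPM against 0.439 to 2.35 CPM, and IQCA1 15.7 CPM against 1.08 to 6.52 CPM. Among the 6 genes for proteins inside the doublet microtubules, C3 was highest for 5. C3H1orf189 (CFAP141) had 8.36 CPM in C3 and at most 0.611 CPM elsewhere, and C11H9orf116 (PIERCE1) had 16.8 CPM against 2.07 to 4.14 CPM. Central pair genes were mixed. CFAP47 had 19.7 CPM in C3 against 2.93 to 8.4 CPM, while HYDIN had 8.36 CPM in both C3 and I4, and CFAP221 was slightly higher in I1 than in C3.

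The levels of C3 were also set beside those of the cumulus libraries, on a scale over all 16 libraries. For 25 of the 38 genes C3 lay above every cumulus library. CFAP44 reached 4.65 CPM and EFCAB1 0.0531 CPM in the highest cumulus library. Among the others were HYDIN, ARMC4 (ODAD2) and IQCA1, with cumulus libraries at 54.1 to 90.7 CPM, at least 68.7 CPM and 17.4 to 35.6 CPM.

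C3 moved the side difference of this list. Of the 28 genes tested, 4 lay above and 24 below 0, with a median of -0.47. Without C3 the median was -0.03, with 16 of 28 below 0. CFAP44 had -4.14 ± 1.70, and -0.68 without C3. MAATS1 had -1.82 ± 0.81, and -0.44 without C3. An unadjusted p under 0.05 in edgeR was found for 4 of the 28, against 3.53% of all entries. These were CFAP44, TTC25, C1H21orf58 and MAATS1. All 4 were lower on the ipsilateral side and highest in C3, with overlapping sides and an adjusted p of 1 in edgeR's quasi-likelihood test. In limma-voom 2 had an unadjusted p under 0.05, C1H21orf58 (0.0404) and C25H16orf71 (DNAAF8, 0.0137). These 2 changed less without C3, C1H21orf58 from -1.59 to -1.12 and C25H16orf71 from -1.33 to -1.04.

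Of the 187 entries high in C3 only, 15 were named, 158 were Ensembl entries and 14 were NCBI entries without a symbol, and 64 passed the filter for the side test. Some genes are counted more than once here. Of the 187, 10 held nearly the counts of another (within 2% or 2 counts in each of the 16 libraries), among them 3 unnamed entries that repeat a named one. Counting these once leaves 182 entries, and copies that differ by more than this were not searched for. The motile cilium list held 8 of the 15 named ones. Outside the list, C3H1orf194 at 10.8 CPM and C15H11orf88 (HOATZ) at 6.7 CPM are known from ciliated cells or cilium formation. Each had at most 0.102 CPM in any other granulosa library. WDR93 had 11.1 CPM in C3 and at most 2.23 CPM in the other granulosa libraries, and CTXND1 6.6 CPM against at most 0.614 CPM. The other 3 are known from other cell types. H1FOO (H1-8), the linker histone of the oocyte, had 5.18 CPM in C3 and at most 0.254 CPM in the other granulosa libraries. BCL2L10, a BCL2 family gene abundant in oocytes, had 5.48 CPM against at most 1.08 CPM. IGHM, the immunoglobulin mu heavy chain of B cells, had 7.43 CPM against at most 1.66 CPM.

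These 3 genes, unlike the other 12, had a cumulus library at or above the level of C3, at 92.6, 112 and 32.1 CPM. The same held for 24 of all 187 entries. H1FOO and BCL2L10 were the only oocyte markers matched, and their sum was 10.7 CPM in C3 and 0 to 1.33 CPM in the other granulosa libraries. MUCL3 was the only gene matched from the list for oviduct-like ciliated epithelium. It was expressed in every granulosa library, from 3.29 CPM in C4 to 21.4 CPM in C1, with 16.8 CPM in C3. Cumulus libraries had at most 1.19 CPM. Its level in C3 therefore cannot tell such cells from granulosa cells here. The part of cells of the oviduct, the oocyte, the surface epithelium or blood in the profile of C3 was not tested, and most of their defining markers were not analysed here by name.

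Of the 7 other granulosa libraries, none had a named entry among those high in it alone. I2 had 29 Ensembl entries and 1 unnamed NCBI entry, and C1 had 21 Ensembl entries. In each the named part of the table gave no description of what set them apart.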

How the data were processed

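RNA-seq was analysed for 8 granulosa libraries, with 8 cumulus libraries used for cumulus levels and for the difference of side effects. The authors deposited unnormalized read counts per entry. Per the labels' protocols, the SMART-Seq HT and Nextera XT kits, which leave strand unmarked, were used, with reads of 75 bp from 1 end. Per the submitters' processing notes, the tools STAR, Trimmomatic, FastQC and DESeq2 were used, no versions or roles stated. The build, gene models and counter are not given in the sources consulted.

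Entries were named by symbol, or by NCBI gene number through RefSeq (ARS-UCD2.0). Current symbols stand in parentheses. Counts were tested with edgeR 4.0.16 (limma 3.58.1, R 4.3.3): filterByExpr (minimum count 10, total 15), TMM, robust quasi-likelihood F-test and Benjamini-Hochberg adjustment over all entries tested. SE is the log2 fold change over the root of F, without sign. DESeq2 1.42.0 and limma-voom, other scalings and filters, and leaving out each library were alternatives. The tests were also run on simulated data with known changes, placed only in entries with higher counts. The size of difference that the side test could miss is not reported here. Named entries were the 12 with the smallest p per direction, the 2 unnamed ones per direction and any called by a tool, up to 15 high in 1 library only, the 8 with the largest SD of log2(CPM + 1), up to 4 per list of at least 3 tested members, and 5 per direction of the interaction. The members and lists were chosen with earlier results of these data known, and the roles of cilium genes and the entries named by loading, as well as other list members quoted as contrast, were chosen after their values were seen. Some entries that this rule names are not reported here. Principal components used log2 CPM with a prior count of 2.

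Replicates were compared first. Chi-square per entry was between 25 and 78.7 for all pairs, far above the value near 1 of resequenced libraries, so each counted as its own sample. Of 88 named entries, 19 lay within 2% or 2 counts of another entry in every library, and 36 of the 81 that the reference places overlap another gene. Such pairs include CFAP44 (BOC), FAM173A (CCDC78), C1H21orf58 (PCNT), TCTE1 (TMEM151B), C3H1orf189 (UBAP2L) and C15H11orf88 (BTG4), whose reads cannot be told apart without strand. No sequence was used here.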

Additional observations from a re-analysis of the deposited data

Results flagged for a closer look

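Groups of 4 libraries were screened for 1 library far from the other 3, by the gap of the extreme library to its neighbour as a share of the group's range, against Dixon's critical value. Of 214 groups, 30 passed, where chance flags about 1 in 20. The largest set was C3 within the contralateral group, and most of these entries were chosen because C3 was high, so that their flags add nothing. The share was 1 for TCTE1, C15H11orf88 and H1FOO, 0.996 for EFCAB1, 0.995 for WDR63, 0.991 for both ZBBX and C3H1orf194, 0.963 for BCL2L10, 0.947 for CFAP44, 0.937 for WDR93, 0.933 for C11H9orf116, 0.927 for C3H1orf189, 0.914 for CTXND1, 0.876 for IGHM and 0.84 for MAATS1. It was 0.86 for the summed CPM of the motile cilium list.

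C3 was also the highest contralateral library for genes named by their spread or their p, to which its level contributed, so that these add little. The share was 0.978 for FAM84A, 0.971 for MUC16, 0.936 for PRR29 and 0.844 for FAM173A. It was 0.921 for EMB and 0.847 for SELENOH, which were named as members of lists of 3 genes tested. In C4, the selenophosphate synthetase gene SEPHS2 stood highest among the contralateral libraries (0.932), and summed replication-dependent histones stood lowest (0.896).

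Within the ipsilateral group, I4 had the highest total counts (0.871), I1 the highest CASC4 (0.88) and I2 the lowest EVA1A (0.88). I1 had the highest WDR63 (0.962), and I3 and I4 were the only ipsilateral libraries with a count of ZBBX (1) and of C15H11orf88 (1). These last levels lie under the floor of 3 counts.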

How the results depend on the processing

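The count of called entries was 0 under the other scalings, filters and limma-voom, with all 16 libraries and without any 1 granulosa library, and 1 in DESeq2, where ENSBTAG00000021855 (-1.54) passed. The interaction likewise had 1 call in DESeq2. Entries at an unadjusted p under 0.05 numbered 1155 with no filter on low counts, 903 in DESeq2, 1137 with all 16 libraries, and 469 (without C2) to 904 (without I3) without 1 library. For the interaction they numbered 1094 to 1937 without 1 library. The higher share of these side entries was 39.7%, 50.7% without C3 and 57.7% without I3. The median of all entries stayed between -0.008 and 0.011. Alternatives gave 1328 values for 86 differences of named genes that could be tested, by side or between cell types. Of these 1303 kept direction and call, 1 was newly called and 24 changed sign. Without 1 library, C11H2orf40 ran from -1.23 (without I4) to 0.09 (without C4), HYDIN from -1.45 (without I4) to 0.26 (without C3), EMB from -0.01 (without I3) to 1.07 (without C3), SELENOW from -0.06 (without I3) to 0.12, PCDHB14 from -0.56 to 0.19 (without C4), and PCDHB11 from -0.07 (without I1) to 1.07 (without I4), with -1.09 in limma-voom. WDR93 ran from -1.31 to 0.53 (without C3), IGHM from -1.66 to 1.75 (without C3), MUC16 from -0.96 (without I3) to 6.01 (without C3), FAM84A from -2.13 (without I3) to 3.38 (without C3), COL21A1 from -0.80 (without I2) to 0.46 and IL1RAPL2 from -0.03 (without I4) to 0.79. In limma-voom IGHM had 0.30, COL21A1 -0.57 and IL1RAPL2 -0.05. List medians without 1 library ran from -0.69 to -0.03 for motile cilium, -0.09 to 0.03 for zinc-finger genes, -0.15 to 0.07 for matrix genes, -0.06 to 0.12 for selenoproteins and -0.56 to 0.19 for protocadherins and cadherins. In limma-voom, matrix genes had -0.15 and protocadherins and cadherins -0.77, which had -0.54 under the stricter filter. The cause was not tested. With at least 8 times the next library, entries high in 1 library numbered 0 in I1, 13 in I2, 3 in I3, 0 in I4, 11 in C1, 133 in C3 and 0 in C4. With at least 1 CPM they numbered 14 in I1, 67 in I2, 50 in I3, 15 in I4, 7 in C2, 382 in C3 and 21 in C4. No paired analysis was possible because the labels give no replicate numbers. Pools of unknown overlap, 4 per side, and a table largely without gene names limit what could be described.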
